A study of Mus musculus with 264 samples.

Results

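The unexposed neurospheres of this series, cultured at 0 mM ethanol, were examined for how their transcripts varied with their size. All 68 neurospheres whose ethanol label was 0 mM were taken, of 264 in the table of cycle numbers, and 196 exposed neurospheres were not used. All were grown from dorsal telencephalon, the wall of the future cerebral cortex, dissected from C57/Bl6 mouse fetuses on gestational day 12.5. Cells were pooled from 2 litters at a time, grown without attachment in a defined medium with bFGF, EGF, LIF, an ITS supplement, heparin and progesterone, and collected on day 5. Each neurosphere was imaged, given a diameter and a size label (S, M or L), lysed and read singly by reverse transcription and quantitative PCR. The groups compared were 11 neurospheres labelled S, 36 labelled M and 21 labelled L, all at 0 mM and of the same strain and medium. The stage is that of the source description, which is the same for all; the separate stage label counts upward from one neurosphere to the next and was not used.

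A neurosphere is a floating ball of neural stem and progenitor cells and of the cells they give rise to. It grows by division and by fusion of smaller aggregates, and growth factors such as bFGF and EGF keep the stem cells dividing. In larger aggregates cells lie farther from the medium, and progenitors, differentiating cells and dying cells can sit at different depths. The readout is the PCR cycle at which product is seen, so a lower number means more template. A step of 1 cycle is a doubling if each primer pair doubles its product in every cycle.

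The 75 assays carry codes, and the files do not pair the codes with genes, so transcripts can only be counted and shown by 4 example codes. The tissue and cell type labels could therefore not be checked against marker genes. Of 5100 cycle numbers, 628 (12.3%) had no value, which was taken as not detected, and the rest ran from 2.5 to 27.6 cycles. Between 53 and 73 assays were detected per neurosphere, with a median of 68. The neurospheres came from 2 culture sets, Set-A and Set-B, with 34 each, and were read in 3 runs. Run 1 held 11 of each set, run 2 held 23 of Set-A and run 3 held 23 of Set-B, and these 4 combinations are named by run and set below. The labels name 6 isolations from 12 pregnancies but tie each neurosphere only to its set. Isolation could therefore not be used as a block, and within a combination size and isolation cannot be told apart. With only 2 culture sets, p-values speak of the spread among neurospheres, which may be smaller than that among cultures. Since cycle numbers carry no molecule count, that spread is also the measure of precision.

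Diameters ran from 20.7 to 197 µm, a range of 9.5-fold or 3.25 doublings. The S neurospheres measured 20.7 to 32.2 µm with a median of 29.0, the M neurospheres 35.3 to 50.8 µm with a median of 39.4, and the L neurospheres 55.0 to 197 µm with a median of 85.0. The 3 labels thus cover separate ranges of diameter, and L is the widest of them. Size was spread unevenly over the cultures. Set-A held 18 of the 21 L neurospheres and 6 of the 11 S neurospheres, and its mean diameter was 68.7 ± 40.5 µm (SD, n = 34) against 43.0 ± 9.21 µm in Set-B (SD, n = 34). Run 1 Set-A had 9 L and no S, run 1 Set-B had 2 L and 1 S, run 2 Set-A had 9 L and 6 S, and run 3 Set-B had 1 L and 4 S. Every test was therefore made within combinations, unless a setting without that covariate is named, and ranges by size group pool the combinations. Of the 4, run 2 Set-A holds both ends of the size range in number.

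The first question was whether larger neurospheres gave more template. They did not measurably do so. Each neurosphere's mean cycle number was taken over the 49 widely detected assays, those with a value in at least 95% of the neurospheres. It was 13.9 ± 2.83 in S (SD, n = 11), 14.1 ± 2.08 in M (SD, n = 36) and 13.6 ± 2.11 in L (SD, n = 21). The lowest, median and highest neurosphere stood at 7.06, 15.1 and 16.7 cycles in S, at 9.23, 14.9 and 17.4 in M and at 8.92, 13.9 and 18.1 in L. The 3 groups overlapped over most of their ranges, and the earliest product of all 68 came from an S neurosphere. Within combinations the slope was -0.05 cycles per doubling of diameter (SE 0.46, 95% interval from -0.97 to 0.88, permutation p = 0.918, adjusted p = 0.918 over the 4 measures per neurosphere). Template that followed the volume of a sphere would give -3 cycles per doubling, and template that followed its surface -2, and both lie outside the interval. How cell number related to diameter was not measured, and fewer cells and less RNA per cell cannot be told apart in lysates of whole neurospheres.

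In Set-A the slope was -0.29 cycles per doubling in run 1 (95% interval from -1.91 to 1.32) and 0.25 in run 2 (-1.05 to 1.55), and in Set-B it was -1.57 in run 1 (-4.68 to 1.54) and -0.92 in run 3 (-5.30 to 3.47). The volume line was outside the interval in both Set-A combinations and inside it in both Set-B combinations, where diameters spanned less. Set-A gave 0.13 cycles per doubling and Set-B -1.26, a difference of -1.38 (SE 1.39, permutation p = 0.300), which did not pass. The L neurospheres came 0.38 cycles later than the S neurospheres within combinations (SE 0.91, 95% interval from -1.42 to 2.19, adjusted permutation p = 0.918). In run 2 Set-A alone the L neurospheres came 1.40 cycles later (SE 1.27), and with run 2 Set-A left out the difference was -1.10 (SE 1.38). Neither value differed from 0 by more than the spread between neurospheres. Pearson's r between mean cycle number and log2 diameter, both centred within combinations, was -0.01 (permutation p = 0.918, adjusted p = 0.918 over 3 relations) and Spearman's rho was -0.10 (permutation p = 0.395, adjusted p = 0.593). Without the 2 neurospheres farthest from the median diameter, of 138 and 197 µm, r was -0.05.

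**Figure D1:**
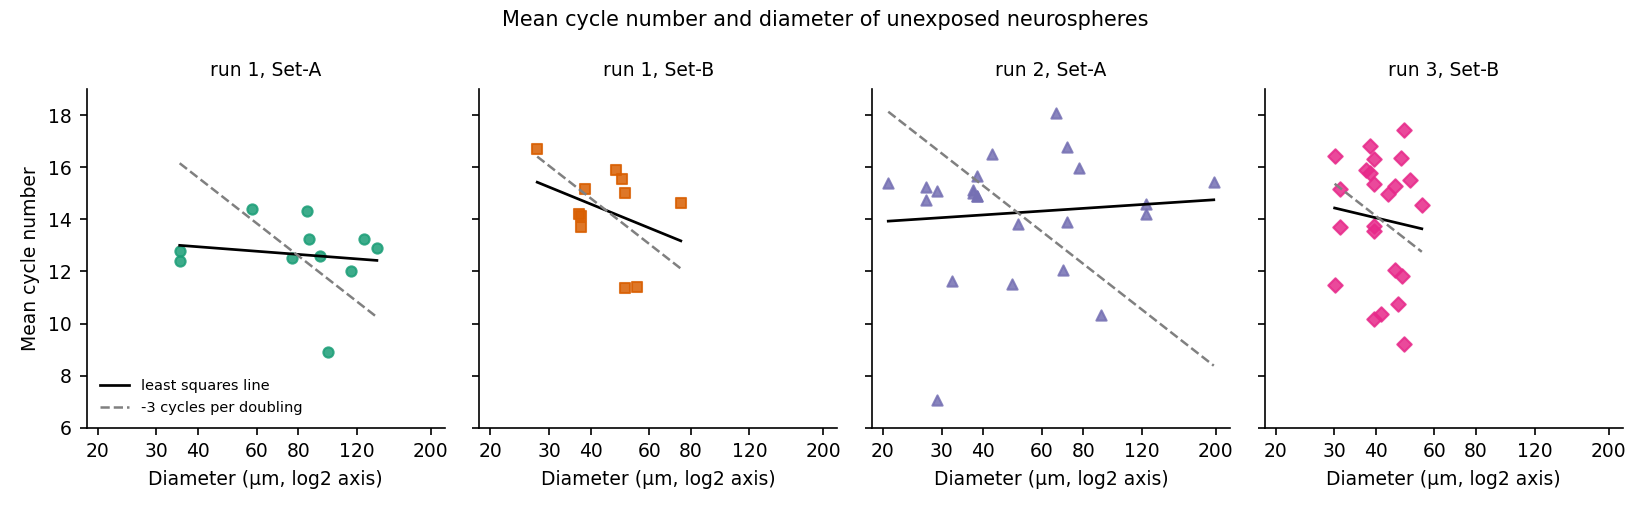
Mean cycle number of each unexposed neurosphere (lower means more template) against diameter in µm on a log2 axis, 1 panel for each combination of run and set, with the least squares line and a dashed line of -3 cycles per doubling. The fitted lines run between -1.57 and 0.25 cycles per doubling, and neurospheres of like diameter lie several cycles apart.

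Neurospheres of one diameter could differ widely. Among 34 neurospheres that shared 1 of 15 diameters with another of the same combination, the SD of mean cycle number was 2.50 cycles, against 2.17 within combinations as a whole. A pair of 29.0 µm neurospheres in run 2 Set-A stood at 15.1 and 7.06 cycles. The mean cycle number of all 68 spanned 11.02 cycles. Within combinations, mean cycle number accounted for a median of 72.8% of the variance of an assay's cycle number in the 69 assays with a value in at least 50% of the neurospheres, and log2 diameter for 1.29%. The 49 widely detected assays, with a median share of 78.4%, are themselves terms of that mean, so part of the share is built in.

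No change in the number of transcripts detected was found with size either. S neurospheres had 66.2 ± 5.04 detected assays (SD, n = 11), M 64.4 ± 6.06 (SD, n = 36) and L 67.9 ± 4.47 (SD, n = 21). Within combinations the slope was 0.18 assays per doubling (SE 1.00, 95% interval from -1.82 to 2.18, permutation p = 0.818, adjusted p = 0.918). Of 26 assays detected in 5% to 95% of the neurospheres, 0 (0.0%) changed in detection with diameter by permutation, and 1 had an unadjusted p under 0.05. Of the 24 that the exact Mantel-Haenszel test could compare between L and S within combinations, 0 (0.0%) passed and 0 had an unadjusted p under 0.05. Each of these tests rested on only 1 to 3 combinations, so a change in detection could go unseen.

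Each transcript was then followed per neurosphere, without centring. On this scale a slope of 3 would mean template that grew with volume. Of 69 assays tested, 0 (0.0%) changed with diameter (limma, adjusted p under 0.05), and 6 had an unadjusted p under 0.05. Their slopes ran from -1.40 to 1.51 log2 units per doubling with a median of 0.38, and 46 of 69 were positive. The upper bound of the 95% interval was under 3 for all 69 assays, the highest being 2.98. Between L and S, 0 of 69 (0.0%) passed, with 8 at an unadjusted p under 0.05 and a smallest adjusted p of 0.103 (limma). The median SE of a slope was 0.57 on this scale, since neurospheres differed widely in overall signal.

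Each assay was then set against the neurosphere's own mean, as the mean cycle number of the 49 widely detected assays minus the cycle number of the assay. This relative level, in log2 units, is higher where the transcript made up more of the signal, and its slopes had a median SE of 0.30. Relative levels did change with size in the fit of all 68 neurospheres. Without run 2 Set-A 0 assays passed, as given below. Of 69 assays, 14 (20.3%) passed (limma, adjusted p under 0.05), of which 7 (10.1%) rose with diameter and 7 (10.1%) fell. Slopes of those that rose ran from 0.58 to 1.29 log2 units per doubling and of those that fell from -0.62 to -1.45. Their median size was 1.02 (2.03-fold per doubling), against 0.43 over all 69. The fit chose these 14 for their size of slope, so this gap is a description. Without centring, the slopes of all 14 had the same sign. That was largely fixed beforehand, since mean cycle number itself had a slope of only -0.05 cycles per doubling. Of the 14, 10 were detected in all 68 neurospheres and 1 in under 95%.

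The split between rising and falling assays depends on what is taken as the mean. The median slope of all 69 assays was 0.31 with the 49 widely detected assays as reference and 0.74 with the 5 steadiest. Those are the assays whose differences to each other varied least, which is not steadiness against diameter. On the main reference the 5 had slopes of -0.84, -0.62, -0.57, -0.31 and 0.30. Those of -0.84 and -0.62 are among the 7 that fell. A reference that falls with diameter raises the slopes set against it. With the 5 steadiest as reference 24 rose and 6 fell, with the 33 assays detected in every neurosphere 13 rose and 7 fell, and with missing values set to 30 cycles 3 rose and 7 fell.

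**Figure D2:**
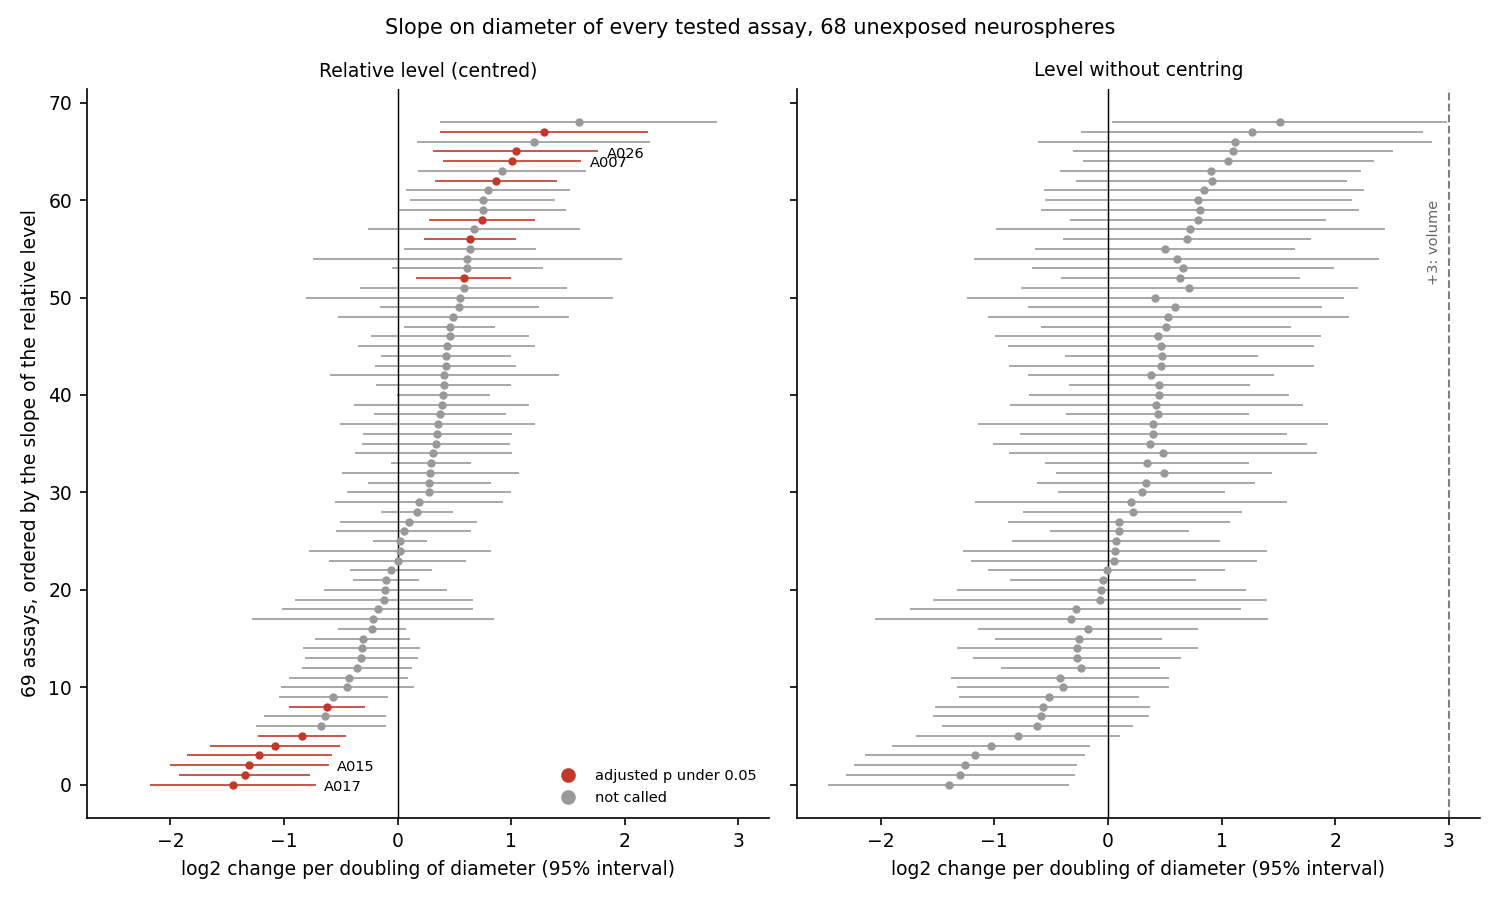
Slope on diameter of each of 69 assays in 68 unexposed neurospheres, in log2 units per doubling with its 95% interval, for relative levels (left) and for levels without centring (right), in the same order. The 14 assays in red passed for the relative level (7 rose and 7 fell), 0 passed without centring, and all intervals on the right end below the dashed line at 3.

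A017 and A015 fell most among the assays that met the naming rule, which asked for a call, detection in at least 95% of neurospheres and the same sign in each of the 4 combinations. A017 was detected in all 68. Its relative level ran from 0.22 through a median of 3.37 to 4.40 in the 11 S neurospheres, from 0.31 through 3.00 to 5.11 in the 36 M neurospheres and from -5.54 through 0.66 to 2.87 in the 21 L neurospheres. S and M covered nearly the same range, and L reached far below both while still overlapping them. In run 2 Set-A, the 6 S neurospheres stood at 3.71, 3.88, 3.74, 2.54, 0.22 and 3.37 from the smallest to the largest. The 9 L neurospheres there stood at 1.67, -4.26, 1.39, -2.24, -1.78, -0.32, 2.50, 1.44 and -2.30, in the same order. All 9 lay below the S median and 5 lay below every S neurosphere, and the largest neurosphere was not the lowest. A017 was chosen by a slope fitted to these same neurospheres, and the calls rested on this combination. Such counts, here and for the other named assays below, are therefore descriptions.

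A017 fell by 1.45 log2 units per doubling (SE 0.37, limma adjusted p = 0.00401), or 2.73-fold. Fitted alone, Set-A gave -1.25 in run 1 and -1.65 in run 2, and Set-B gave -0.94 in run 1 and -0.43 in run 3. Between L and S the difference was -2.79 (SE 0.69, limma adjusted p = 0.00386), which is 6.92-fold lower in L. Most of it lay between M and L: M minus S was -0.42 (SE 0.60, limma adjusted p = 0.966) and L minus M was -2.37 (SE 0.56, limma adjusted p = 0.00284). Without centring the slope was -1.40 (SE 0.53, limma adjusted p = 0.293), which did not pass over 69 assays.

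A015 was also detected in all 68. Its relative level ran from -1.38 through a median of 1.56 to 3.02 in S, from -1.59 through 1.34 to 3.10 in M and from -6.41 through -0.06 to 1.78 in L. In run 2 Set-A the 6 S neurospheres stood at 1.75, 1.49, 2.33, 1.56, -1.38 and 0.97. The 9 L neurospheres stood at -0.06, -6.41, 0.85, -4.05, -3.79, -0.84, 0.95, 0.36 and -5.34, again from the smallest to the largest. Of these 9, 4 lay below every S neurosphere there and 5 lay within the S range. A015 fell by 1.31 log2 units per doubling (SE 0.35, limma adjusted p = 0.00401) and was 5.22-fold lower in L than in S (log2 difference -2.38, SE 0.68, limma adjusted p = 0.00723). Its slopes in the combinations alone were -0.62, -1.64, -0.87 and -0.34, in the order given for A017.

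For both, some L neurospheres stood far below the rest, and others stayed in the range of S and M. For A017, 9 of the 21 L neurospheres lay below every S and M neurosphere. They were 4 from run 1 and 5 from run 2, all Set-A, and measured 58.1 to 197 µm. For A015 there were 7 of 21, all of them also among those 9. These counts were made after the values were seen and set neurospheres of different combinations side by side, and run 1 Set-A has no S neurosphere and 2 M. An 85.0 µm neurosphere of run 1 Set-A was among the 9 for A017 (-4.11) and was the highest L neurosphere for A015 (1.78). It also had the fewest detected assays of the L neurospheres in its combination, at 58 with the next at 68. The SD of the relative level of A017 was 1.17 in S, 1.11 in M and 2.64 in L, and that of A015 was 1.23, 1.18 and 2.53. A test of the spread of relative levels on diameter called 0 of 69 assays (0.0%, limma, 1 at an unadjusted p under 0.05), and A015 was the one under 0.05 (p = 0.00491, limma adjusted p = 0.339).

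A026 and A007 were the largest of those that rose and met the same rule. A026 was detected in 67 of 68 and had no value in 1 L neurosphere. Its relative level ran from -8.41 through a median of -3.26 to -0.32 in S, from -8.64 through -3.25 to -0.23 in M and from -4.24 through -1.80 to 0.56 in L. The groups overlapped, and among neurospheres with a value the levels below -4.24 were all in S and M. In run 2 Set-A the 6 S neurospheres stood at -3.02, -1.74, -4.17, -3.26, -0.32 and -3.29, and the 9 L neurospheres at -0.66, 0.56, -2.06, -0.38, -0.63, -0.86, -1.73, -1.88 and -0.34. All 9 lay above the S median, and 1 lay above every S neurosphere. A026 rose by 1.04 log2 units per doubling (SE 0.36, limma adjusted p = 0.0331) and was 4.41-fold higher in L than in S (log2 difference 2.14, SE 0.70, limma adjusted p = 0.0183), both without the L neurosphere that had no value. The call for the slope ended with missing values at 30 cycles (0.70, limma adjusted p = 0.325), on diameter in µm (limma adjusted p = 0.121), without the 2 farthest diameters (1.12, limma adjusted p = 0.0702), without run 1 Set-A (1.09, limma adjusted p = 0.0678) and without run 1 Set-B (0.84, limma adjusted p = 0.0709). In the same order, its slopes alone were 0.85, 0.81, 5.85 and 1.12, and the 5.85 of run 1 Set-B rests on 10 neurospheres.

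A007 was detected in all 68. Its relative level ran from -4.44 through a median of -2.32 to -0.02 in S, from -6.08 through -2.03 to 1.08 in M and from -4.73 through -1.85 to 1.71 in L. Pooled over combinations the groups overlapped almost wholly. Run 1 Set-A, which holds 9 L neurospheres, was low throughout, from -4.73 to -1.95. Within run 2 Set-A the 6 S neurospheres stood at -3.20, -3.35, -3.80, -2.32, -0.71 and -2.18, and the 9 L neurospheres at -0.77, 1.71, -1.26, -0.73, -1.21, -0.56, -2.12, -1.70 and 0.12. All 9 lay above the S median and 3 above every S neurosphere. A007 rose by 1.01 log2 units per doubling (SE 0.30, limma adjusted p = 0.0127), with 0.78, 1.00, 1.84 and 0.94 in the combinations alone, and was 3.90-fold higher in L than in S (log2 difference 1.97, SE 0.58, limma adjusted p = 0.00942). Without the combination as a covariate its slope was 0.39 (limma adjusted p = 0.316), which did not pass.

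**Figure D3:**
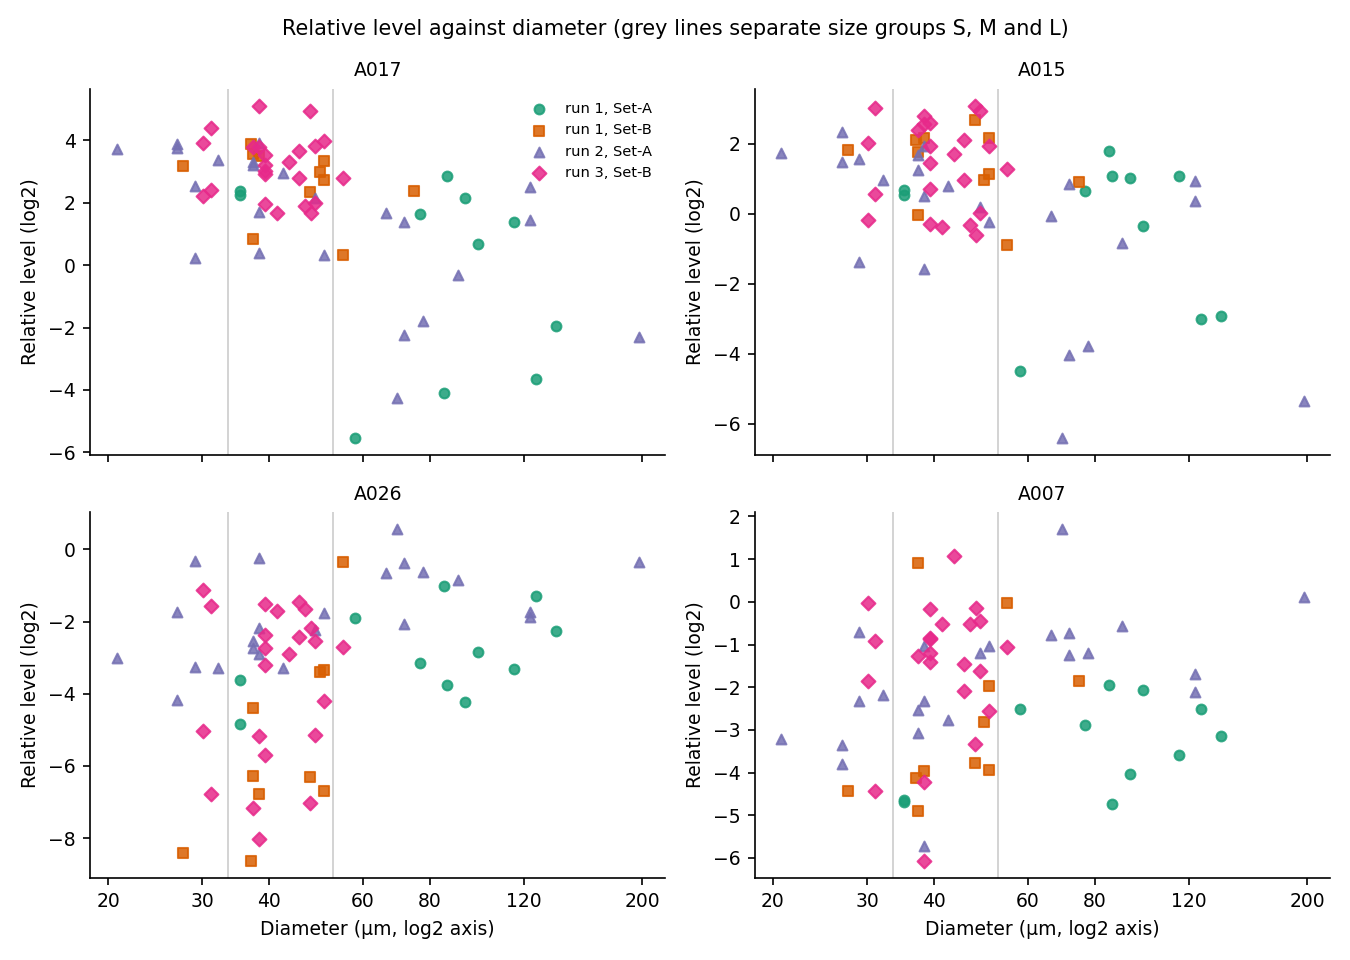
Relative level (log2) of A017, A015, A026 and A007 in each unexposed neurosphere against diameter in µm on a log2 axis, with colour and marker for the combination and grey lines between size groups S, M and L. A017 and A015 reach -5.54 and -6.41 in L neurospheres, against lowest values of 0.22 and -1.59 in S and M together.

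Overall signal moved with some of these levels as well. Within combinations, mean cycle number accounted for 3.37% of the variance of A017, 8.52% of A015, 21.9% of A026 and 16.7% of A007, and log2 diameter for 19.4%, 17.5%, 11.2% and 14.6%. Over all 69 assays the medians were 10.01% for mean cycle number and 3.44% for log2 diameter. Mean cycle number is itself a term of every relative level and diameter is not, so these shares are not on an equal footing. When mean cycle number was added to the fit, 19 assays passed, of which 10 rose and 9 fell, and all 4 named assays still did. Mean cycle number had almost no relation to diameter within combinations (r = -0.01), so this fit could hardly move the slopes. The part of overall signal in the calls was not tested.

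The size labels gave a like number of calls. Between L and S, 15 of 69 assays (21.7%) passed (limma, adjusted p under 0.05), 6 (8.7%) higher and 9 (13.0%) lower in L, with a median size of 3.78-fold. The split was 8 higher and 7 lower when each neurosphere was centred on its median, 10 and 8 with the assays detected in every neurosphere, 11 and 6 with the 5 steadiest, and 3 and 7 with missing values at 30 cycles. Between M and S, 0 of 69 (0.0%) passed, 0 had an unadjusted p under 0.05 and the smallest adjusted p was 0.966 (limma). Between L and M, 15 (21.7%) passed, 7 (10.1%) higher and 8 (11.6%) lower in L. With the 5 steadiest as reference that split was 12 and 6, and with missing values at 30 cycles 4 and 7. The slope, L against S and L against M come from the same neurospheres and shared 12 calls, of 18 assays called in any of them.

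The middle group lay nearer to the small one than to the large one for these transcripts. Over the 14 assays called for their slope, the median size of M minus S was 0.34 and of L minus M 1.67. In log2 diameter, M stood 0.57 above S and L stood 1.03 above M, so the distance in size was also smaller. M minus S had the sign of the slope in 13 of the 14 assays and in 52 of all 69, which is a description, since the slopes come from the same S and M neurospheres. A squared term in log2 diameter passed in 0 of 69 assays (limma, 2 at an unadjusted p under 0.05), so a bend in the relation was not detectable in these neurospheres.

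The calls rested on run 2 Set-A. Fitted alone, run 2 Set-A called 15 of 69 assays (24 at an unadjusted p under 0.05), and each of the other combinations called 0 (limma). An unadjusted p under 0.05 was reached by 6 assays in run 1 Set-A, by 3 in run 1 Set-B and by 3 in run 3. Without run 2 Set-A, which leaves 5 S and 12 L neurospheres, 0 assays passed for the slope (5 at an unadjusted p under 0.05) and 0 for L against S (7). A017 then had a slope of -1.04 (limma adjusted p = 0.447), A015 of -0.62 (0.602), A026 of 1.55 (0.447) and A007 of 1.03 (0.447). Set-A alone called 17 assays, 10 higher and 7 lower, and Set-B alone called 0 (2 at an unadjusted p under 0.05). Directions were shared more widely than calls. Of the 14 assays called, 11 had the same sign in all 4 combinations, against 26 of all 69, and 13 had the same sign in both sets, against 42 of 69. The 14 were chosen in a fit that held all 4 combinations, so these shares are descriptions. A test of the difference in slope between the culture sets called 0 of 69 (0.0%, limma, 2 at an unadjusted p under 0.05, smallest adjusted p 0.927), and it was 0 in run 1 alone (3) and in runs 2 and 3 alone (0).

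**Figure D4:**
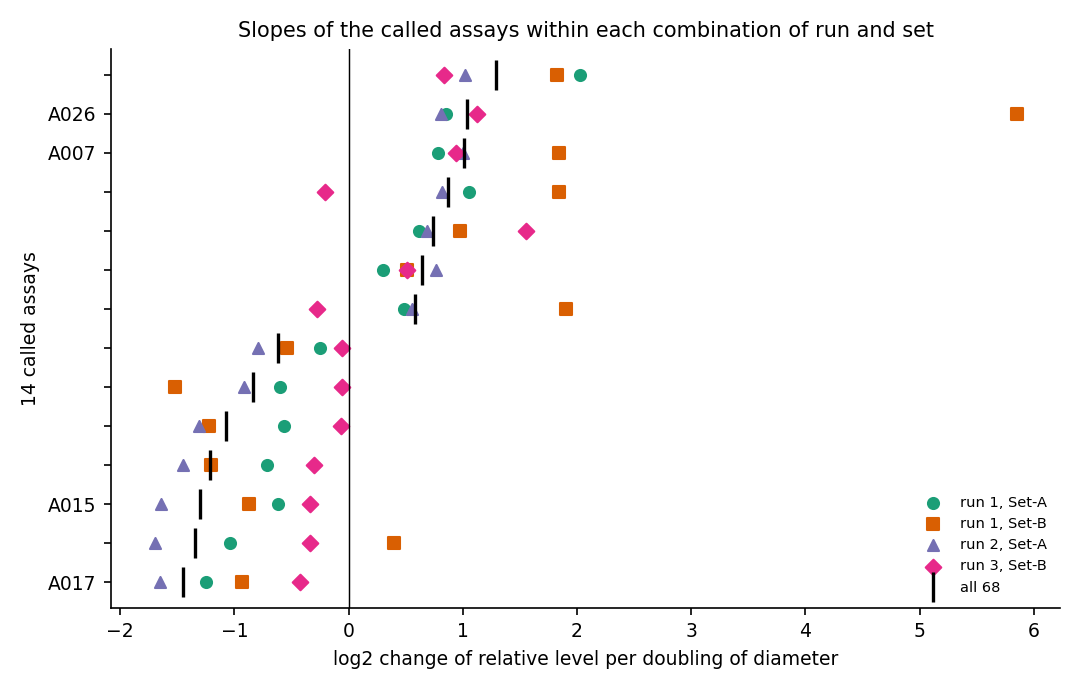
Slopes of the 14 called assays (rows) in log2 units of relative level per doubling of diameter, with a marker for each combination of run and set alone and a black bar for the fit of all 68. In 11 of the 14 rows all 4 markers lie on 1 side of 0, and the 5.85 of A026 in run 1 Set-B is the farthest from its bar.

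A few neurospheres carried much weight. Leaving out each of the 68 in turn gave between 9 and 22 calls for the slope. The lowest, 3 higher and 6 lower, was without the 197 µm neurosphere of run 2 Set-A, and the highest, 12 higher and 10 lower, was without a 37.3 µm neurosphere of run 1 Set-B. Without the 2 farthest diameters, of 138 and 197 µm, 6 assays passed, 1 higher and 5 lower. A017 and A007 passed in all 68 of these fits. A015 ended without the 197 µm neurosphere (slope -1.03, limma adjusted p = 0.056). A026 ended without that neurosphere (1.10, limma adjusted p = 0.056), without a 35.3 µm neurosphere of run 1 Set-A (0.99, limma adjusted p = 0.0579), without the 27.7 µm neurosphere of run 1 Set-B (0.97, limma adjusted p = 0.05) and without a 27.0 µm neurosphere of run 2 Set-A (0.97, limma adjusted p = 0.0607). L against S gave between 11 and 19 calls in such fits.

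Diameter was also set against the main axis of variation among the neurospheres, which was built without it. Principal component 1 of the 33 assays detected in all 68, each centred within combinations, held 50.0% of their variance, and component 2 held 15.1%. Scores ran from -6.35 through a median of 2.66 to 8.58 in S, from -10.3 through 1.84 to 10.4 in M and from -12.1 through -2.22 to 6.12 in L. L neurospheres were shifted down and the ranges overlapped. The score fell by 3.21 per doubling of diameter (slope -3.21, SE 1.08, 95% interval from -5.36 to -1.05, permutation p = 0.0029, adjusted p = 0.0116 over the 4 measures). Pearson's r was -0.35 (permutation p = 0.0029, adjusted p = 0.0087 over 3 relations) and Spearman's rho -0.37 (permutation p = 0.00222, adjusted p = 0.00666). Without the 2 farthest diameters r was -0.31 (permutation p = 0.0111).

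In Set-A the slope of the score was -2.09 in run 1 (permutation p = 0.333) and -3.50 in run 2 (permutation p = 0.00844), and in Set-B it was -4.42 in run 1 (permutation p = 0.399) and -2.33 in run 3 (permutation p = 0.631). Only run 2 Set-A passed alone, and all 4 slopes were negative. Without run 2 Set-A the slope was -2.45 (SE 2.02, permutation p = 0.182). A017 had the largest loading (0.30), A015 the second (0.27) and A007 the fourth (-0.26). All 7 assays that fell with diameter loaded positively, 5 of them among the 10 largest loadings, and the 3 that rose and were detected in all 68 loaded negatively. These loadings and the slopes come from the same cycle numbers. The score was also tied to overall signal, with r = 0.52 to mean cycle number within combinations. That mean is a term of every relative level behind the score. The part of overall signal in the slope was not tested.

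**Figure D5:**
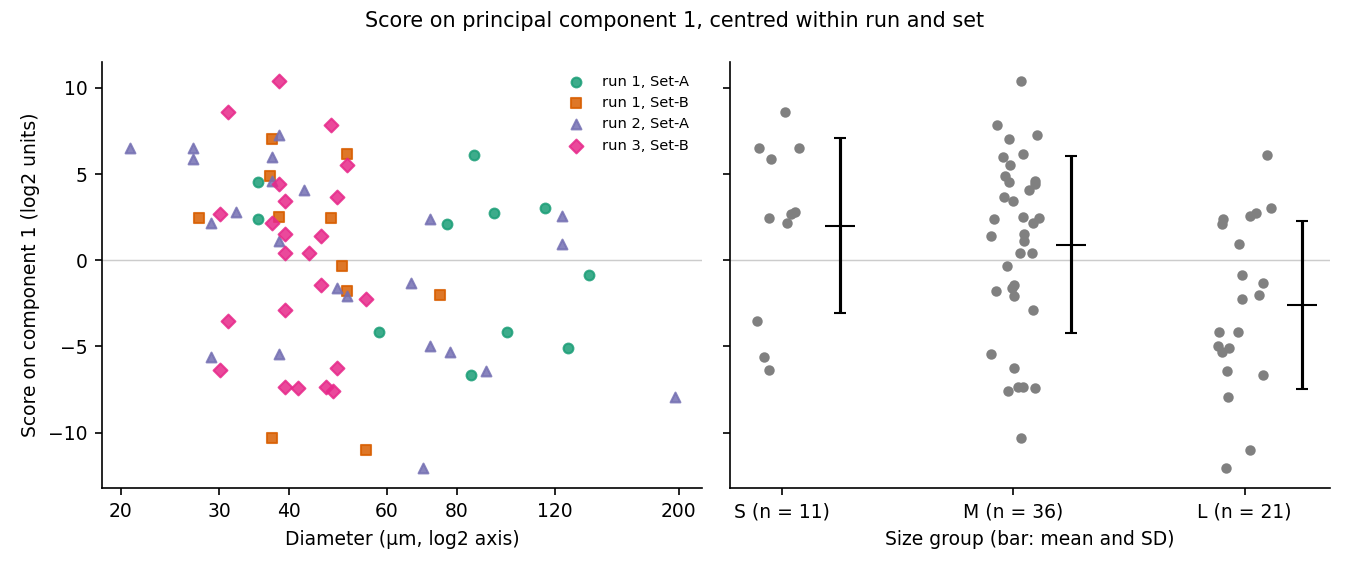
Score on principal component 1 (log2 units, centred within run and set) of each unexposed neurosphere against diameter in µm on a log2 axis (left) and by size group with mean and SD (right). The median score is 2.66 in S, 1.84 in M and -2.22 in L, with overlapping ranges.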

How the data were processed

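Per the labels' protocols, single neurospheres were lysed, taken straight to reverse transcription and pre-amplification, and read on Biomark HD arrays with EvaGreen over 30 cycles. The deposited values are the instrument software's cycle numbers, an inverted log2 scale, not normalized per the file headers. Primer efficiency, and when a value was left missing, are not stated in the sources used here. Codes of 0 of 75 assays matched the mouse gene table (GRCm38.p6), and the series design names 96 genes and 400 neurospheres, of which the others are not analysed here.

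Slopes and size groups were fitted in limma 3.58.1 (R 4.3.3), with combination of run and set as a covariate and Benjamini-Hochberg adjustment over 69 assays, leaving missing values missing. Single measures were tested with two-sided permutation tests (100000 resamples of diameter or size label within combination, smallest possible p 1e-05), and detection between L and S with an exact conditional Mantel-Haenszel test, two-sided. Python 3.11.15, numpy 2.4.6, pandas 2.3.3, scipy 1.17.1 and matplotlib 3.10.9 were used, and both kinds of test were checked on simulated data. Up to 2 assays that rose and 2 that fell were named: called for the slope, detected in at least 95%, of the same sign in all 4 combinations, then by size of slope. The members, this rule and the tests were chosen with earlier results of these data known. Planned marker genes could not be used, since no assay has a gene name. Alternatives changed the reference, missing values, covariates, the scale of diameter and the neurospheres held.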

Additional observations from a re-analysis of the deposited data

Results flagged for a closer look

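Mean cycle number, number of detected assays and the 4 named assays were checked in the 6 size groups of a combination that hold 4 to 10 neurospheres. Of these 36 checks, which are not independent, 5 found 1 neurosphere far from the others, and chance alone gives about 1 in 20. In the L neurospheres of run 1 Set-A, the lowest mean cycle number was 8.92, with the next at 12.0 and the highest at 14.4. In the same group the lowest number of detected assays was 58, with the next at 68. In the S neurospheres of run 2 Set-A, the lowest relative level of A017 was 0.22 with the next at 2.54, and the lowest of A015 was -1.38 with the next at 0.97. Both belong to the 29.0 µm neurosphere whose mean cycle number was 7.06. In the M neurospheres of run 2 Set-A the lowest relative level of A007 was -5.72, with the next at -3.07.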

How the results depend on the processing

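For the slope of relative levels, the 14 calls became 30 with the 5 steadiest assays as reference, 29 without the combination covariate, 6 without the 2 farthest diameters, 0 in Set-B alone and 0 without run 2 Set-A, and ran from 9 to 22 with 1 neurosphere left out. With the 5 steadiest, which themselves mostly fell with diameter, the slopes of all 4 named assays moved upward. They were -1.04 for A017, -0.90 for A015, 1.44 for A026 and 1.42 for A007, against -1.45, -1.31, 1.04 and 1.01. The cause of the other changes was not tested. The 15 calls of L against S became 23 with robust regression and 0 without run 2 Set-A, and ran from 11 to 19 with 1 neurosphere left out. The slope of principal component 1, -3.21, kept its sign and did not pass in Set-B alone (-3.62), without run 2 Set-A (-2.45), or in run 1 Set-A (-2.09), run 1 Set-B (-4.42) and run 3 Set-B (-2.33) alone. Other settings left the calls of the slope between 10 and 21. A permutation test in place of limma, added after seeing the data, called 21 assays, 14 higher and 7 lower, among them all 14. No named assay changed sign under its 16 alternatives. The naming rule had asked for the same sign in each of the 4 combinations. It thereby fixed the sign in each set alone and with a combination left out. A017 passed in 14 of the 16, A015 and A007 in 13 and A026 in 9. A015 did not pass without the 2 farthest diameters (-0.94, limma adjusted p = 0.0892). A015, A026 and A007 also did not pass in Set-B alone (-0.61, 2.96 and 1.41), nor did A017 (-0.69). Mean cycle number, number of detected assays, detection per assay, levels without centring, M against S and the difference between sets gave 0 calls in every alternative run. No paired analysis was possible because each replicate number names a single neurosphere and marks no source shared between size groups.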

Other observations

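Assays that changed with size also varied together among neurospheres of the same size. After log2 diameter and combination were taken out, the 21 pairs among the 7 assays that fell had correlations between 0.40 and 0.89, with a median of 0.63, over 68 neurospheres. The 21 pairs among the 7 that rose had a median of 0.58, with a range from -0.16 to 0.87, and the 49 pairs of one that rose and one that fell had a median of -0.56. The median over all 2346 pairs of tested assays was 0.01. All pairs share the neurosphere and its mean, and these values are descriptions.

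The 29.0 µm neurosphere of run 2 Set-A with the earliest product of all 68 (7.06 cycles) stood apart from the other 5 S neurospheres there in all 4 named assays. It was the lowest of the 6 for A017 (0.22) and A015 (-1.38) and the highest for A026 (-0.32) and A007 (-0.71), on the side where the L neurospheres lay. Its cycle numbers for A017, A015, A026 and A007 were close together, at 6.84, 8.44, 7.38 and 7.78. The medians of the 6 S neurospheres were 11.2, 13.1, 17.4 and 17.7. Whether so early a readout narrows the differences between assays was not tested. This neurosphere was picked out after its values were seen, and so was the following one. The earliest S neurosphere of run 3 Set-B (30.1 µm, 11.5 cycles) lay on the same side of the other S neurospheres there. It was the lowest of them for A017 (2.21) and A015 (-0.16) and the highest for A026 (-1.13) and A007 (-0.02).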
